A study of Mus musculus with 42 samples.

Results

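The RNA-seq tables of this series list 158 pseudogenes among 2828 distinct genes. A pseudogene was taken to be any row whose biotype contains the word pseudogene, apart from immunoglobulin and T cell receptor pseudogenes. The series asks how the methyl group on adenosine 58 of tRNA, placed by the enzyme whose catalytic subunit is Trmt61a, bears on the expansion of T cells. The cells were naive CD4 T cells of C57BL/6 mouse spleens, taken at 8 weeks of age, and the stimulus was antibody to CD3 (5 µg/ml, bound to the plate) together with antibody to CD28 (2 µg/ml). Each of the 4 tables belongs to 1 time after stimulation (0, 3, 6 or 48 h) and sets 2 libraries with a conditional knockout (cKO) of Trmt61a against 2 wild-type (WT) libraries. All groups share the strain, age, organ and cell type; the promoter that drove the recombinase in the RNA-seq mice is not given in the labels, nor whether libraries of 1 group came from separate mice, so p-values measure the spread between these libraries, which may be technical.

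Pseudogenes are copies of genes that have lost, or are annotated as having lost, the capacity to make the protein. Processed pseudogenes arise when an mRNA is copied back into DNA and inserted elsewhere, without the introns of the parent; strongly transcribed genes such as those for ribosomal proteins have left many. Unprocessed pseudogenes come from duplicated stretches of a chromosome, and polymorphic ones are intact in some strains and broken in others. Short reads from a young copy can match the parent as well, so a level given for a pseudogene may hold reads of another locus.

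By biotype, 114 of the 158 were processed and 11 transcribed processed pseudogenes, 18 were unprocessed and 5 transcribed unprocessed, 6 were polymorphic, 2 transcribed unitary, 1 unitary, and 1 was a plain pseudogene. A parent could be read from the name or description of 36, which point to 32 parents; 22 of these 36 are copies of 18 different ribosomal protein genes. The other 122 give no parent, and 107 of the 158 carry a placeholder name that starts with Gm. Set out by name and position, 8 belong to interferon-inducible or major histocompatibility complex (MHC) families, 6 lie in 1 cluster on chromosome 7, 6 lie in 1 block on chromosome 1, 22 are ribosomal protein copies, 13 have another named parent and 103 have none. In RefSeq (GRCm38.p6), 141 of the 158 were found by symbol and position, and RefSeq calls 7 of these protein-coding.

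The values are scaled read counts, that is, reads divided by 1 factor per library. The 4 tables were scaled separately, so levels are compared within a time only. Each table holds genes with an unadjusted p under 0.05, so a gene that is listed already differed in that comparison, and the direction of listed genes is a description with no test. The full depth of the libraries is unknown; the reads recovered for listed genes ran from 423873 to 674416 per library at 0 h and from 1784474 to 1940866 at 3 h, and then from 846691 to 1117581 (6 h) and from 3380554 to 4482346 (48 h). Trmt61a had 22.6 and 22.9 scaled reads in cKO libraries at 0 h, against 363 and 216 in WT libraries, and was called lower at all 4 times. In such bulk RNA, fewer cells of a type and less RNA per cell cannot be told apart. Of 7 CD4 T cell markers, Lck at 3 h (lower in cKO), and Cd28 and Trac at 48 h (higher in cKO), were listed, with none called; the levels of the rest are not analysed here. Other cell types' markers also moved with genotype. At 3 h, 9 of 9 pancreatic acinar markers were listed and called higher in cKO, with sums of 989 and 7136 in cKO libraries against 13.5 and 21.9 in WT libraries. At the same time 5 of 7 submandibular gland markers were listed as lower in cKO, with 32.3 and 36.8 in cKO libraries against 7330 and 611 in WT libraries, and 3 of 5 CD8 and NK cell markers (Nkg7, Ncr1, Klrb1c) were listed as higher, with 364 and 242 in cKO libraries against 122 and 104 in WT libraries. At 6 h the 9 acinar markers were again listed as higher, 4 of them called, and Igkc, a B and plasma cell marker, was called lower, with 874 and 1167 in cKO libraries against 2684 and 3239 in WT libraries. Submandibular gland markers (5 of 7) were listed as lower at 0 h and 6 h too, with WT replicate 1 far above the rest: 82.5 and 66.3 in cKO libraries against 1732 and 76.6 in WT libraries at 0 h, and 25.9 and 36.4 in cKO against 1716 and 160 in WT at 6 h. At 0 h, 3 of 7 monocyte and macrophage markers (C1qa, C1qb, C1qc) were listed as lower, uncalled, with 1992 and 1088 in cKO libraries against 3558 and 1838 in WT libraries, and Alas2 of the 4 erythroid markers as higher; Nkg7 was listed as higher at 6 h, uncalled. The part of these markers in the pseudogene values was not tested.

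Pseudogenes with an adjusted p under 0.05, here termed called, were found at 3, 6 and 48 h. At 0 h, 0 of 32 listed pseudogenes were called in the authors' deposited table, where 0.781% of all listed genes were called; all 32 had an unadjusted p under 0.05, since the table holds no others, and limma, edgeR and DESeq2 also called 0. At 3 h, 6 rose and 3 fell among 47, in all 19.1%, against 23.2% of all listed genes (16.1% rose and 7.06% fell). At 6 h, 4 of 49 rose and none fell, in all 8.16%, against 11.2% of all listed genes (7.97% rose and 3.24% fell). At 48 h, 4 rose and 8 fell among 70, in all 17.1%, against 19.7% of all listed genes (6.95% rose and 12.8% fell). These shares lie near those of the listed genes as a whole, and no test was made of the differences. Another 9 pseudogenes at 3 h, 5 at 6 h and 14 at 48 h have an adjusted p written as 1 in the deposited tables and were left uncalled there.

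More pseudogenes were listed as higher than as lower in cKO at 0 and 3 h, and more as lower at 6 and 48 h. At 0 h, 23 of 32 (71.9%) were listed as higher, with 77.3% among all listed genes, and at 3 h 28 of 47 (59.6%), with 52.2%. At 6 h, 33 of 49 (67.3%) were listed as lower, with 51.5% among all listed genes, and at 48 h 47 of 70 (67.1%), with 63.4%. The median difference in log2(scaled reads + 1), cKO minus WT, was 0.83 over the pseudogenes and 0.91 over all listed genes at 0 h, 0.48 and 0.31 at 3 h, -1.24 and -0.69 at 6 h, and -0.31 and -0.23 at 48 h. Over the listed protein-coding genes alone the medians were 0.65 (0 h), 0.34 (3 h), 0.84 (6 h) and -0.23 (48 h), so that at 6 h protein-coding genes had the opposite sign to the pseudogenes and to all listed genes. Relative to the protein-coding genes the pseudogene medians were 0.17 (0 h), 0.14 (3 h), -2.08 (6 h) and -0.0746 (48 h). At 6 h, 329 listed protein-coding genes were higher in cKO and 264 lower. Listed genes were selected for a difference, so each median depends on which direction holds more genes. The -2.08 is therefore no measure of a shift in level. The libraries of the 2 genotypes did not overlap in 28 of 32 pseudogenes at 0 h (85.4% of all listed genes), 47 of 47 at 3 h (97.8%), 46 of 49 at 6 h (93.4%) and 68 of 70 at 48 h (98.8%).

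Single libraries weighed on 2 of these directions. At 0 h, cKO replicate 2 exceeded every other library by more than 1.5 times in 14 of the 23 pseudogenes listed as higher, and likewise in 211 of the 297 such genes overall; without it the median at 0 h was 0.32. At 6 h, WT replicate 1 did so in 26 of the 33 pseudogenes listed as lower, and in 172 of 381 genes overall; this is also the library with the highest submandibular gland sum at that time (1716); without it the median at 6 h was -0.46, and WT replicate 2 alone still lay above both cKO libraries in 32 of the 33.

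**Figure D1:**
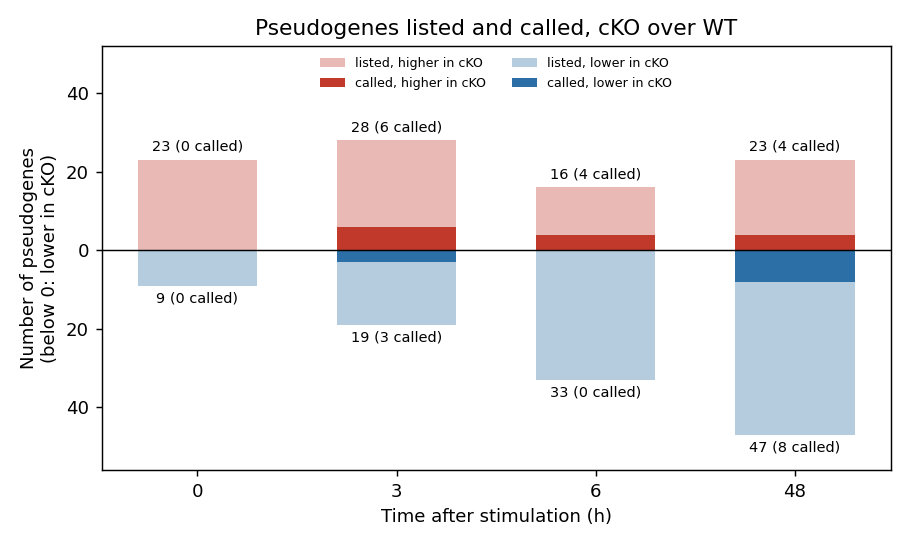
Number of pseudogenes listed (pale bars) and called at the authors' adjusted p under 0.05 (dark bars) at each time in hours, with those higher in cKO above the zero line and those lower in cKO below it. Listed pseudogenes lean to higher at 0 and 3 h (23 and 28) and to lower at 6 and 48 h (33 and 47), and called ones number 0, 9, 4 and 12.

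Interferon-inducible and MHC pseudogenes were listed as higher in cKO at 0, 3 and 6 h. They numbered 2 of 2 at 0 h, 4 of 4 at 3 h with 1 called, and 6 of 6 at 6 h with 3 called. Among all listed genes, 77.3%, 52.2% and 48.5% were higher at these times, and 0.781%, 23.2% and 11.2% were called. At 48 h only Gm12250 of this group was listed, as lower. The group is a list of 8 names drawn up with earlier results known, so its shared direction is a description. Gm8801 (chr17:35947246-35952297), on the chromosome of the MHC gene H2-Q4 (chr17:35379617-35385290), is not in it and was listed as lower, uncalled. It had 2.94 and 0 scaled reads in cKO libraries against 13.5 and 26.9 in WT libraries at 3 h. The authors' deposited table gives it a log2 fold change of -4.73 at 6 h. Interferons act through receptors and STAT proteins to switch on families of GTPases, RNA sensors, chemokines and MHC molecules.

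Gbp11, a polymorphic pseudogene of the guanylate-binding protein family of interferon-inducible GTPases, rose at 3 h and 6 h. At 3 h it had 580.2 and 456 scaled reads in cKO libraries, against 52.2 and 103 in WT libraries, and at 6 h 389 and 155 in cKO libraries, against 59.5 and 24.2 in WT libraries. Both cKO libraries lay above both WT libraries at each time. The authors' deposited table gives log2 fold changes of 2.74 (adjusted p = 4.91e-10) at 3 h and 2.71 (adjusted p = 0.0127) at 6 h. On reads recovered from the same table, DESeq2 kept the call at 3 h (adjusted p = 1.55e-05) and lost it at 6 h (adjusted p = 0.384).

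Gm12250, which RefSeq lists under the synonym Irgb10 (an immunity-related GTPase) and as protein-coding, was the pseudogene of the tables listed at all 4 times. It had 434 and 723 scaled reads in cKO libraries against 327 and 352 in WT libraries at 0 h, and 1181 and 1027 in cKO against 265 and 70.7 in WT at 3 h. At 6 h it had 1474 and 509 in cKO libraries against 249 and 52.7 in WT libraries, and at 48 h 1348 and 1824 in cKO libraries against 1891 and 1989 in WT libraries. Its libraries separated at every time, with cKO above WT through 6 h and below at 48 h. In the authors' deposited table it was called at 6 h, with a log2 fold change of 2.72 (adjusted p = 0.020), and not at 3 h, with 2.72 (adjusted p = 0.0899). DESeq2 on the recovered reads called it at 3 h (adjusted p = 0.00143) and not at 6 h (adjusted p = 0.217).

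Of the 8 pseudogenes with an entry in RefSeq's table of promoters (GRCm38.p6, 250 bases before to 50 after the start), 2 hold the letters of an interferon-stimulated response element (ISRE), searched on both strands as GAAA, any 2 bases and GAAA. These are Gm12250 and Gm1966, and the sequences shown are those with ISRE letters. Both genes were called after stimulation, as was C920009B18Rik, whose window holds no such letters. Over all 32851 windows of this length, 3.443% hold the ISRE letters and 8.298% hold the letters of a gamma-activated site (GAS), searched as TTC, any 3 bases and GAA. In the sequences below, read 5′ to 3′ along the gene's strand, capitals mark the matches. The Gm12250 window, chr11:58183593-58183892 on the plus strand, has ISRE letters beginning 91 and 46 bases before the start and GAS letters beginning 61 bases before it. The Gm1966 window, chr7:106644596-106644895 on the minus strand, has ISRE letters beginning 163 bases before the start; that RefSeq start lies 40.6 kb upstream of the span the tables give for Gm1966, against 3.9 kb for Gm12250. The other 6 (Amy2b, C920009B18Rik, Clec7a, Gm15501, Ppp1ccb and Tma7-ps) have neither motif's letters in their windows. A match of letters is no evidence of binding.
Gm12250: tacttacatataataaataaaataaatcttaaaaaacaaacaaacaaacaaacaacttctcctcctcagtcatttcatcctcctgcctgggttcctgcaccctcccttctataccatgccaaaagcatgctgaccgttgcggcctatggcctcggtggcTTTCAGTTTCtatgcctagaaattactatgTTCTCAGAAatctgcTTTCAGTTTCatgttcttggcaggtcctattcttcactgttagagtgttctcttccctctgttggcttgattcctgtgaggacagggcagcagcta
Gm1966: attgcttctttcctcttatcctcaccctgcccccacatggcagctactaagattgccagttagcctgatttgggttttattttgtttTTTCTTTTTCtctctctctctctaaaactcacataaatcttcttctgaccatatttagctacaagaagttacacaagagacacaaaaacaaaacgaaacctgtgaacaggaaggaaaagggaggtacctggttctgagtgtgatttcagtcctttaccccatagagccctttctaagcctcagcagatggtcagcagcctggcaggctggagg

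Oas1b belongs to the oligoadenylate synthetases, sensors of double-stranded RNA, and in mice its intact allele gives resistance to flaviviruses. It rose at 6 h, with 659 and 207 scaled reads in cKO libraries against 67.8 and 65.6 in WT libraries (log2 fold change 2.70, adjusted p = 0.00314 in the authors' deposited table). At 3 h it had 199.6 and 223 in cKO libraries against 129 and 102 in WT libraries, with no call (adjusted p = 0.238 in the authors' deposited table). The gap between cKO replicates at 6 h was wide, but both stood above WT; DESeq2 gave an adjusted p of 0.166 there.

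Mx2, a dynamin-like antiviral GTPase that is broken in many laboratory strains, had 489 and 30.5 scaled reads in cKO libraries at 6 h, against 14.3 and 0.863 in WT libraries, and was not called (adjusted p = 0.639 in the authors' deposited table; 0.0472 by DESeq2). The value of cKO replicate 1 is far above the other 3. Cxcl11, a ligand of the chemokine receptor CXCR3, was in the same position at 3 h, with 58.7 and 1.05 scaled reads in cKO libraries and 0.967 and 0 in WT libraries, so that nearly all of its reads came from cKO replicate 1. H2-K2 and H2-Q5, class I MHC loci, were listed at 6 h. H2-K2 had 484 and 400.4 in cKO libraries against 227 and 269 in WT libraries, and H2-Q5 had 1365 and 1498 in cKO against 823 and 1001 in WT; both were non-overlapping and uncalled, with ratios of the means of 1.78 and 1.57. Slfn10-ps, of the schlafen family, was listed at 0 h with 266 and 614 in cKO libraries against 198 and 244 in WT libraries.

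**Figure D2:**
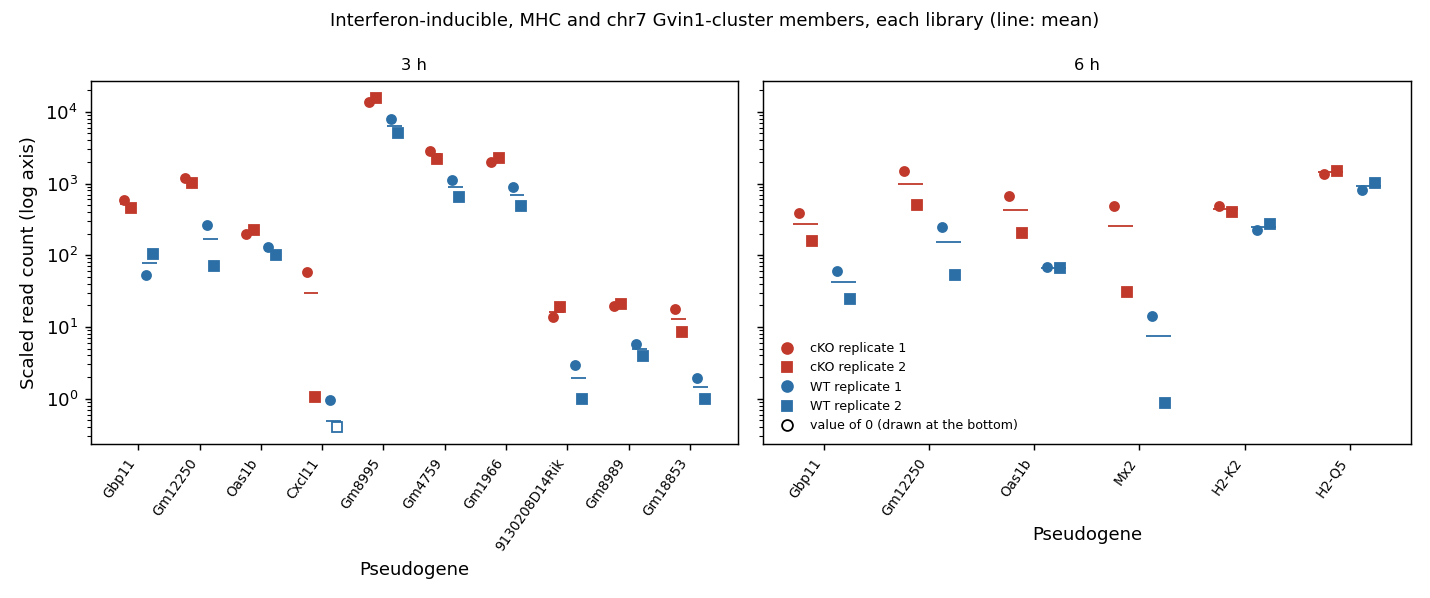
Scaled read counts (log axis) of the interferon-inducible and MHC members and the chromosome 7 cluster at 3 h, and of the interferon-inducible and MHC members at 6 h, with cKO libraries (red) left of WT libraries (blue) and lines at the group means. In each of the 16 pairs of groups both cKO libraries lie above both WT libraries, while Cxcl11 at 3 h and Mx2 at 6 h owe their means mainly to cKO replicate 1. Among all listed genes the genotypes did not overlap in 97.8% at 3 h and 93.4% at 6 h.

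A cluster of 6 pseudogenes on chromosome 7 was spread over 779.8 kb around the coding gene Gvin1 (a very large interferon-inducible GTPase). Its listed members were higher in cKO at 0, 3 and 48 h, and none of the cluster was listed at 6 h. At 3 h all 6 were listed as higher and 3 rose, while 16.1% of all listed genes rose. At 0 h 3 of 3 listed were higher without a call, and at 48 h the 1 listed, Gm8995, rose. Among all listed genes, 77.3% (0 h), 52.2% (3 h) and 36.6% (48 h) were higher, and 6.95% rose at 48 h.

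Gm8995 (chr7:106504239-106511671) held the most reads of the pseudogenes listed at 3 h. It had 13773 and 15813 scaled reads in cKO libraries at 3 h, against 7812 and 5041 in WT libraries, and 3903 and 3668 in cKO libraries at 48 h, against 2397 and 3110.4 in WT libraries. The authors' deposited table gives log2 fold changes of 1.20 (adjusted p = 5.42e-05) and 0.46 (adjusted p = 0.00814). DESeq2 on the recovered reads called it at both times, with adjusted p-values of 0.00121 and 0.0115.

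Gm4759 (chr7:106417848-106424469) and Gm1966 (chr7:106596743-106604035) rose at 3 h. RefSeq lists Gm1966 as protein-coding. Gm4759 had 2879 and 2211 scaled reads in cKO libraries against 1111 and 655 in WT libraries (log2 fold change 1.53, adjusted p = 2.68e-05 in the authors' deposited table). Gm1966 had 2001 and 2263 in cKO libraries against 904 and 479 in WT libraries (log2 fold change 1.62, adjusted p = 2.84e-05 in the authors' deposited table). Neither overlapped between genotypes, and DESeq2 called both. At 0 h the ratios of the means were 1.62 for Gm4759 and 1.7 for Gm1966, and cKO replicate 2 was the highest library in each, with 2949.8 and 5771 in cKO libraries against 2604 and 2784 in WT libraries for Gm4759, and 4731 and 9326 in cKO against 4234 and 4042 in WT for Gm1966.

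The other members of the cluster had few reads. At 3 h 9130208D14Rik had 13.7 and 18.9 scaled reads in cKO libraries against 2.9 and 0.996 in WT libraries, Gm8989 had 19.6 and 21 in cKO against 5.8 and 3.98 in WT, and Gm18853, which lies inside Gvin1 on the same strand, had 17.6 and 8.41 in cKO against 1.93 and 0.996 in WT. All 3 were separated between genotypes, as were 97.8% of all genes listed at 3 h, and none was called. The coding genes of the cluster rose as well. Gvin1 had 329 and 256 in cKO libraries at 3 h, against 58 and 57.8 in WT libraries, and Gm4070 had 300.4 and 224 in cKO against 30 and 15.9 in WT, with adjusted p-values of 2.03e-09 and 1.07e-11 in the authors' deposited table. How the authors' counting shared reads among these related loci is not given in the sources used here.

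Gm33707, a processed pseudogene at chr3:60769887-60770455 on the minus strand, was nearly absent from WT libraries and present in cKO libraries at 3, 6 and 48 h. It had 147 and 244 scaled reads in cKO libraries at 3 h, against 1.93 and 0.996 in WT libraries. At 6 h it had 92.1 and 181 in cKO libraries against 0 and 0 in WT libraries, and at 48 h 178 and 163 in cKO against 0 and 0 in WT. No library of 1 genotype came near the other. The ratio of reads at 3 h, where the WT libraries hold 3 reads in all, was 132 (95% interval 44.7 to 641), counting error only; set against a floor of 3 reads per library, the level was at least 44.4-fold higher in cKO at 6 h and at least 58.9-fold higher at 48 h. It rose at 3 h (adjusted p = 1.99e-10) and at 6 h (adjusted p = 1.16e-05) in the authors' deposited table. At 48 h that table gives an unadjusted p of 2.53e-11 beside an adjusted p of 1, while DESeq2 on the recovered reads gave adjusted p-values of 1.19e-07, 0.000371 and 5.48e-08 at 3, 6 and 48 h. It was not listed at 0 h.

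The locus lies 140.1 kb downstream of Mbnl1, a coding gene for an RNA-binding splicing regulator, and 17.9 kb before the non-coding gene Gm38326. Mbnl1 was called higher at 48 h, with 12704 and 11994 scaled reads in cKO libraries against 8217 and 9254 in WT libraries (log2 fold change 0.50, adjusted p = 2.99e-06 in the authors' deposited table). It was listed uncalled at 3 h with 12075 and 16841 in cKO against 11701 and 8233 in WT. Mbnl1 was also listed as higher, uncalled, at 0 h, with 23519 and 29138 in cKO against 15960 and 20071 in WT. Gm38326 had 29.8 and 17.3 in cKO libraries at 48 h, against 1.75 and 0 in WT libraries, and was set aside with an adjusted p of 1. It was also listed uncalled at 3 h, with 15.7 and 6.31 in cKO against 0 and 0 in WT. The 6 h values were 11.5 and 8.85 in cKO against 0 and 0 in WT, uncalled. On the other side of Mbnl1, Tgif1-ps (chr3:60342358-60343093), a processed copy of a gene for a homeobox repressor, had 3.91 and 11.6 at 3 h in cKO libraries and 0 and 0 in WT libraries.

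**Figure D3:**
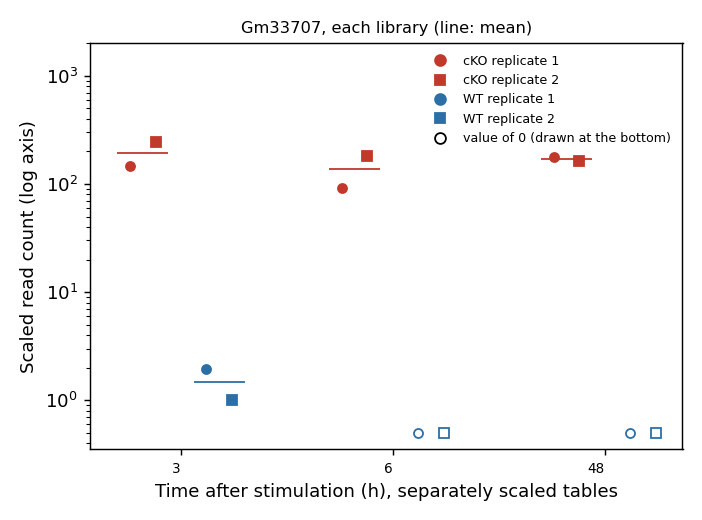
Scaled read counts of Gm33707 (log axis) in each library at 3, 6 and 48 h, cKO (red) left of WT (blue), with lines at the group means and open symbols for values of 0. The 6 cKO libraries lie between 92.1 and 244, and the 6 WT libraries between 0 and 1.93.

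A block of 4.66 kb holds 6 neighbouring pseudogenes, at chr1:24611535-24616197, all unprocessed and on the minus strand. At 3 h and 6 h, 5 of them (Gm28439, Gm28437, Gm10925, Gm28661 and Gm29216) were listed and all were lower in cKO. Of these, 2 were called at 3 h and none at 6 h. Among all listed genes, 47.8% (3 h) and 51.5% (6 h) were lower, and 7.06% and 3.24% were called lower. RefSeq gives Gm10925 the synonym mt-Atp6, the name of a mitochondrially encoded subunit of ATP synthase; the others have no such annotation in the sources used here.

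Gm28437 fell at 3 h, with 161 and 268 scaled reads in cKO libraries against 441 and 531 in WT libraries (log2 fold change -1.18, adjusted p = 0.0234 in the authors' deposited table). Gm28661 fell as well, with 226 and 367 in cKO against 583 and 611 in WT (log2 fold change -1.01, adjusted p = 0.0428 in the authors' deposited table). In both, all WT libraries lay above all cKO libraries, and DESeq2 on the recovered reads made neither call (adjusted p = 0.379 and 0.501). Gm10925 had 329 and 516 in cKO libraries against 711 and 873 in WT libraries at 3 h, and 247 and 276 in cKO against 1013 and 480.0 in WT at 6 h, uncalled at both. Over the 5 members the ratios of the means ran from 0.442 to 0.614 at 3 h and from 0.339 to 0.471 at 6 h. At 6 h WT replicate 1 was the highest library for each, with a sum over the block of 780.3 and 976 in cKO libraries against 3074 and 1446 in WT libraries; WT replicate 2 was still above both cKO libraries.

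Mitochondrially encoded genes were lower in the same libraries. The share of all listed genes called lower was 7.06% at 3 h and 3.24% at 6 h. At 3 h, 10 were listed, all lower in cKO, and 3 fell (mt-Atp6, mt-Nd1 and mt-Nd4); their sum was 229061 and 300176 in cKO libraries against 375267 and 436895 in WT libraries. At 6 h, 10 were listed, all lower in the mean, and the 2 ribosomal RNAs of the mitochondrion fell. The sum was 188489 and 209555 in cKO libraries against 674625 and 257702 in WT libraries, so WT replicate 1 held most of the WT sum. The genotypes did not overlap in 8 of the 10. In mt-Nd2 and mt-Nd4, WT replicate 2 (17781 and 16276) lay below cKO replicate 2 (19186 and 16383). mt-Atp6 itself had 209 and 335 in cKO libraries at 3 h, against 484 and 964 in WT libraries. Whether reads of the block came from chromosome 1 or from the mitochondrial genome cannot be told apart in these tables. At 48 h no mitochondrially encoded gene was listed, Gm10222 of the block had 28.8 and 20.5 in cKO libraries against 55 and 54.9 in WT libraries, and Gm28661 had 394 and 203 in cKO against 208 and 172 in WT, with overlap.

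**Figure D4:**
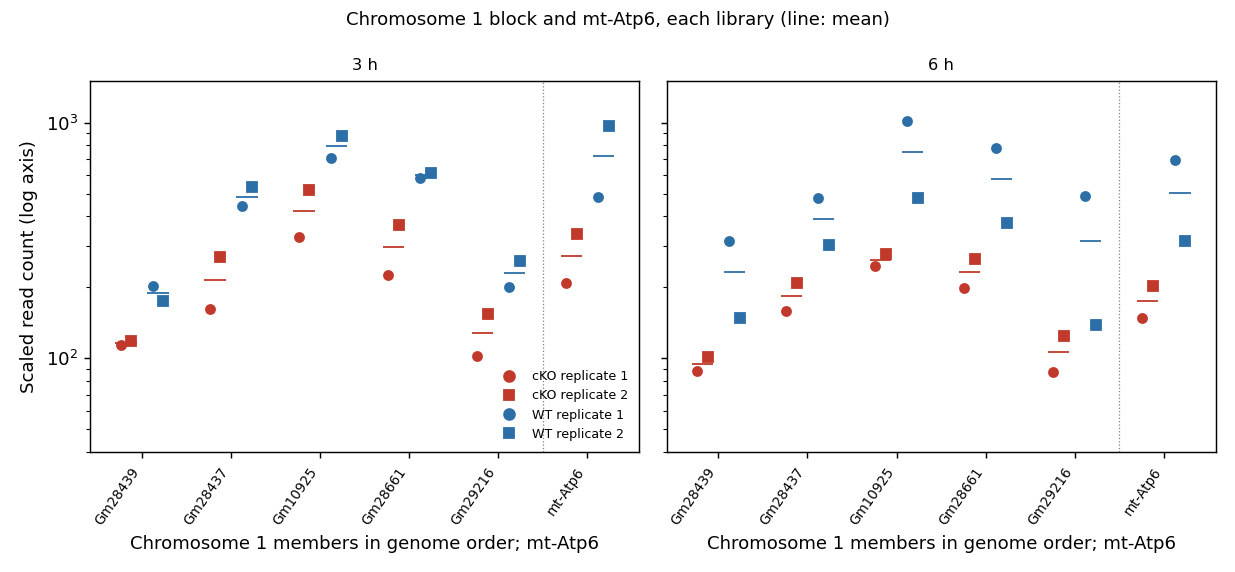
Scaled read counts (log axis) of the 5 chromosome 1 pseudogenes listed at 3 h and 6 h, in genome order, and of mt-Atp6, with cKO libraries (red) left of WT libraries (blue) and lines at the means. Both cKO libraries lie below both WT libraries for every gene at both times, and WT replicate 1 stands highest at 6 h. Among all listed genes the genotypes did not overlap, in either direction, in 97.8% at 3 h and 93.4% at 6 h.

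Copies of ribosomal protein genes made up the largest group with named parents, and were mostly lower in cKO at 48 h. At that time 15 were listed, 12 lower and 3 higher, and the 2 called both rose. Among all genes listed at 48 h, 63.4% were lower and 19.7% were called. At 0 h 4 were listed (3 lower, none called). The 3 listed at 3 h held 2 lower, of which Rps26-ps1 fell, and the 6 at 6 h held 5 lower, none called. Among all listed genes, 22.7% (0 h), 47.8% (3 h) and 51.5% (6 h) were lower, and 0.781%, 23.2% and 11.2% were called.

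Rps26-ps1, a transcribed processed copy of the gene for a protein of the small ribosomal subunit, fell at 3 h. It had 134 and 170.3 scaled reads in cKO libraries against 1221 and 437 in WT libraries (log2 fold change -2.45, adjusted p = 3.48e-05 in the authors' deposited table). WT replicate 1 was far above WT replicate 2, which was still above both cKO libraries. DESeq2 kept the call (adjusted p = 0.00235). Its parent Rps26 was not listed at 3 h. At 0 h Rps26-ps1 was listed with 157 and 70.9 in cKO libraries against 101 and 419.8 in WT libraries, which overlap.

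The ribosomal protein copies that rose at 48 h were AC121151.1, annotated as a copy of Rpl7a, and Rpl30-ps10, on the X chromosome. AC121151.1 had 147 and 209.8 scaled reads in cKO libraries against 61.1 and 49.6 in WT libraries (log2 fold change 1.68, adjusted p = 0.000336 in the authors' deposited table). Rpl30-ps10 had 119 and 226 in cKO against 45.4 and 75 in WT (log2 fold change 1.52, adjusted p = 0.00844 in the authors' deposited table). Both separated the genotypes, and DESeq2 called both. Another Rpl7a copy, Rpl7a-ps5, was listed as higher too, with 648 and 752 in cKO libraries and 534 and 497 in WT libraries, uncalled (adjusted p = 0.131 in the authors' deposited table).

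The 12 copies listed as lower at 48 h had ratios of the means between 0.487 and 0.878, with a median of 0.83, and none was called. The most abundant, Rps10-ps2, had 5145 and 5981 scaled reads in cKO libraries against 6199 and 6720.3 in WT libraries. The one nearest to a call, Rpl21-ps15, had 2688 and 2470.0 in cKO against 3100.0 and 3234 in WT, with an adjusted p of 0.0692 in the authors' deposited table. Coding ribosomal protein genes were also lower: the 21 reported here were all listed as lower, with ratios from 0.808 to 0.901 and a median of 0.866, and of these 21 Rps2 and Rpl36 fell. In each of the 12 copies, as in the 21 coding genes, the listing itself required a difference, and how reads were shared between copy and parent was not tested.

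**Figure D5:**
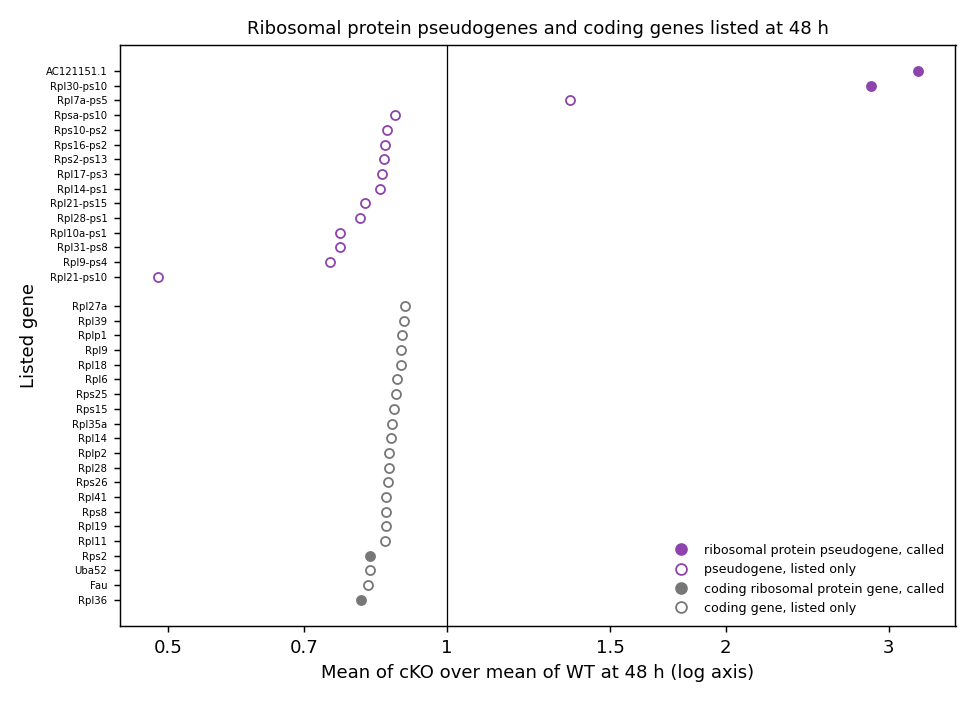
Ratio of the mean scaled read count in cKO over WT at 48 h (log axis) for the 15 ribosomal protein pseudogenes (purple, top) and 21 coding ribosomal protein genes (grey, below) listed at that time, filled where called. Coding genes lie between 0.808 and 0.901, 12 pseudogenes lie below 1, and the 3 above 1 are Rpl7a-ps5, Rpl30-ps10 and AC121151.1.

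In 8 cases a pseudogene and its own parent were listed at the same time, 1 at 3 h and 7 at 48 h. The 7 at 48 h were lower in cKO in both partners. Hmgb1-ps2, a copy of the gene for an abundant chromatin protein, fell at 48 h with 308 and 209 scaled reads in cKO libraries against 445 and 438 in WT libraries (log2 fold change -0.77, adjusted p = 0.0224 in the authors' deposited table). DESeq2 did not call it (adjusted p = 0.0672). Hmgb1 itself had 2334 and 2268 in cKO libraries against 2983 and 2685 in WT libraries and was not called (adjusted p = 0.0799 in the authors' deposited table).

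The other pairs at 48 h were uncalled on the pseudogene side. Tubb4b-ps1, a copy of a tubulin gene, had 50.6 and 67 in cKO libraries against 111 and 95.1 in WT libraries, while Tubb4b fell, with 5730.1 and 6098 in cKO against 7805 and 7654 in WT. Impdh2-ps, a copy of the gene for the rate-limiting enzyme of guanine nucleotide synthesis, had 2128 and 2209 in cKO libraries against 2576 and 2487 in WT libraries, and Impdh2 had 5664 and 5629.9 in cKO against 6668 and 6058 in WT. Per kilobase of gene length and in cKO libraries, the level of the copy was 1.55% of its parent's for Tubb4b-ps1, 12.5% for Rps2-ps13 (which has Rps2, called lower, as parent), 17.4% for Rpl9-ps4, 19.9% for Rpl28-ps1, 53.8% for Rpl14-ps1, 76.5% for Impdh2-ps and 88.6% for Hmgb1-ps2. In WT libraries these shares ran from 2.08% for Tubb4b-ps1 to 123% for Hmgb1-ps2, a copy above its parent. At 3 h the pair differed in direction, and neither was called. Rpl17-ps10 had 4477 and 6536 in cKO libraries against 4329.7 and 2748 in WT libraries. Rpl17 had 8012 and 6419 in cKO against 8376 and 10501 in WT. Per kilobase, Rpl17-ps10 stood at 107% of Rpl17 in cKO libraries and at 52.4% in WT libraries.

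Of the pseudogenes with no named parent, 2 of 27 rose at 3 h, 1 of 30 rose at 6 h, and 1 rose and 7 fell among 42 at 48 h. Among all listed genes, 16.1% rose at 3 h, 7.97% at 6 h and 6.95% at 48 h, where 12.8% fell. Besides Gm33707, C920009B18Rik rose at 3 h; RefSeq lists it as a long non-coding RNA. It had 1233 and 1374 scaled reads in cKO libraries against 879 and 885 in WT libraries (log2 fold change 0.56, adjusted p = 0.0368 in the authors' deposited table), with a DESeq2 adjusted p of 0.544. At 48 h it had 296 and 423 in cKO against 215 and 251 in WT, uncalled.

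At 48 h Gm12751 rose, with 488 and 465 scaled reads in cKO libraries against 246 and 296 in WT libraries (log2 fold change 0.82, adjusted p = 0.00296 in the authors' deposited table). Gm3362 fell, with 579 and 414 in cKO against 800.1 and 867 in WT (log2 fold change -0.75, adjusted p = 0.00257 in the authors' deposited table). Gm11249 fell to 319.5 and 169.8 in cKO libraries against 472 and 509 in WT libraries, and Gm5805 to 272 and 162 in cKO against 431 and 422 in WT. These 4 processed pseudogenes have no annotated function or parent.

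Smaller changes were called for 4 others. Gm5518 fell, with 1253 and 1177 scaled reads in cKO libraries against 1584 and 1830.3 in WT libraries, and Gm5641 had 681 and 596 in cKO against 1002 and 879.8 in WT. Gm10123 had 2624 and 2256 in cKO against 3028 and 3201 in WT, and Gm7336 had 452 and 336 in cKO against 633 and 567 in WT. In the authors' deposited table their log2 fold changes were -0.49, -0.56, -0.35 and -0.61. Of the 12 pseudogenes called at 48 h, DESeq2 on the recovered reads kept 9; Gm10123, Gm7336 and Hmgb1-ps2 were lost, with adjusted p-values of 0.0501, 0.111 and 0.0672.

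Some pseudogenes lie in or beside a listed gene that is not itself a pseudogene. Within 10 kb or in overlap there were 11 such pseudogenes in 16 pairs counted by time, of which 14 had the same direction. These pairs repeat some loci. Gm12188 was paired with both Ifi47 and Olfr56 at 3 h and at 6 h. Gm5970 with Gm4951, and Gm6185 with Ankrd45, were also counted at both times. The share of neighbours with the same direction among all listed genes was not determined. Gm12188 lies within the interferon-inducible GTPase gene Ifi47 on the opposite strand. It had 94.9 and 99.9 scaled reads in cKO libraries at 3 h against 40.6 and 17.9 in WT libraries, and 109 and 47.2 in cKO against 14.3 and 11.2 in WT at 6 h, uncalled. Ifi47 was called higher at both times, with 4713 and 5084 in cKO libraries at 3 h against 2266 and 1112 in WT libraries. The kit marks strand, but the strand setting of the counting is not given in the sources used here, so reads of these partners cannot be told apart.

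Gm6548 lies 608 bp from Eif2ak2, the gene for the RNA-activated kinase PKR, and had 311 and 34.4 scaled reads in cKO libraries at 6 h against 17.8 and 22.4 in WT libraries. Eif2ak2 was called higher there, with 1407 and 199 in cKO against 139 and 96.7 in WT, and in both it was cKO replicate 1 that stood far above the rest. Gm11573 lies 745 bp from Tbx21, the gene for T-bet, and had 11.7 and 8.41 in cKO libraries at 3 h against 0.967 and 0 in WT libraries; Tbx21 was called higher with 2579.9 and 1429 in cKO against 387 and 143 in WT. Gm5297, inside the channel gene Cnga1, was listed as lower at 3 h as was its host. The pairs with opposite directions were Gm29257 with Mdm4, the gene for a p53 inhibitor, and Gm37981 with Gm37010.

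A pair of pseudogenes are known from other cell types. Amy2b, an amylase gene that RefSeq lists as protein-coding, had 6.85 and 87.3 scaled reads in cKO libraries at 3 h against 0 and 0 in WT libraries, and 2.88 and 24.6 in cKO against 0 and 0 in WT at 6 h. Most of its reads came from cKO replicate 2, the library with the highest sum of the 9 acinar markers at both times (7136 at 3 h; 1540 at 6 h, against 114 in cKO replicate 1 and 7.14 and 21.6 in WT libraries). Clec7a, which RefSeq also lists as protein-coding, encodes Dectin-1, a receptor of myeloid cells for fungal glucans. It had 979 and 137 in cKO libraries at 3 h against 19.3 and 51.8 in WT libraries. None of the 7 monocyte and macrophage markers was listed at 3 h, so their levels are not known here and need not be equal. The authors' table did not call Clec7a (adjusted p = 0.138), and DESeq2 did (adjusted p = 0.00357).

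The remaining pseudogenes without a parent name were uncalled. At 0 h 17 were listed as higher and 5 as lower, at 3 h 15 and 12, at 6 h 9 and 21, and at 48 h 15 and 27, called ones included. Many had few reads: over all 158, the mean over the 4 libraries was under 10 scaled reads for 8 of 32 listings at 0 h and 11 of 47 at 3 h, and for 10 of 49 (6 h) and 2 of 70 (48 h). Both WT libraries were at 0 for 4 pseudogenes at 0 h and 3 at 3 h, and for 2 (6 h) and 1 (48 h) later; both cKO libraries were at 0 for 4 at 3 h and 7 at 6 h. Against a floor of 3 reads per library, the 7 at 6 h were at least 3.59-fold to at least 5.04-fold lower in cKO. At 6 h, where WT replicate 1 stood apart, Gm9118 had 562 and 517 in cKO libraries against 3606 and 635 in WT libraries, and Gm15427 had 2159.6 and 2342 in cKO against 7786 and 2705 in WT.

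Across times, 34 of the 158 pseudogenes were listed more than once, 29 at 2 times, 4 at 3 and 1 at 4, and 24 of the 34 kept 1 direction. The 3 h and 6 h tables shared 16 pseudogenes, 34.04% of the first list and 32.65% of the second, and all 16 had the same direction. In the other comparisons of times the direction was shared by 6 of 7 (0 and 3 h), 1 of 4 (0 and 6 h), 4 of 6 (0 and 48 h), 3 of 8 (3 and 48 h) and 2 of 6 (6 and 48 h). These counts describe separate libraries and selected rows, and no test was made of them.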

How the data were processed

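Gene tables from RNA-seq of 16 libraries (4 times, 2 genotypes, 2 libraries each) were used; the other libraries of the series (42 samples in all) are not used here. The authors' deposited tables give per library a signal, read counts per gene divided by 1 factor per library, together with a log2 fold change, a p-value and an adjusted p; the test behind them is not given in the sources used here. Tools named in the submitters' processing notes, without their roles, are featureCounts 1.5.0-p3, HISAT2 2.0.5, Bowtie2 2.4.1 and Trim Galore 0.6.6, with the build mm10. How reads that match several places were counted is not given, which bears on every value of a pseudogene.

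Groups came from the labels. The threshold for a call was 0.05 on the adjusted p of the deposited tables. From the adjusted p-values, 24502, 15399, 16602 and 9940 genes stood behind the adjustment at 0, 3, 6 and 48 h. Dividing by the smallest step of its library turned 100% of the nonzero values into whole numbers (tolerance 0.01), taken as reads; only reads in listed genes are known. Alternatives were fitted over each whole table with p-values adjusted over those numbers of genes: limma 3.58.1 on log2(value + 1), and edgeR 4.0.16 (quasi-likelihood) and DESeq2 1.42.0 on the reads, in R 4.3.3, each tested on simulated data. The design assumed a normalized signal, so these count tests are alternatives. Figures and summaries used Python 3.11.15, pandas 2.3.3 and matplotlib 3.10.9. Intervals and floors (3 reads per library) cover counting error only. With 2 libraries per group, an exact permutation test cannot give a p under 0.333, so none is reported.

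The rule for naming took called pseudogenes, those listed at 2 or more times, and the 5 lowest p in each direction per time. Those whose parent was listed came last, up to 30 per time. It gave the 98 named pairs, and not all of them are described here. Gm6545, Gm7860, Gm8463, Gm9845 and Rpl17-ps3, for example, met the rule and are left undescribed. Clec7a, Cxcl11, Mx2, H2-K2, H2-Q5, Gm10222, Gm11573, Gm15427, Gm18853, Gm29257, Gm37981, Gm5297, Gm8989, Rpl21-ps15, Rpl7a-ps5, Rps10-ps2 and Tgif1-ps fell outside this rule. They were added for their group, level or neighbour after their values were seen, and Gm15501 and Ppp1ccb for their entry in the promoter table. The pseudogenes, groups and marker lists were chosen with earlier results of these data known. A coding ribosomal protein gene listed at 48 h is not reported here.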

Additional observations from a re-analysis of the deposited data

Results flagged for a closer look

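For 8 pseudogenes the libraries of the 2 genotypes did not overlap at 2 or more times and pointed in opposite directions between times. The tables were scaled separately, the rows were selected by p, and the difference between times was not tested. AC121151.1, the Rpl7a copy that rose at 48 h, had a ratio of the means (cKO over WT) of 0.355 at 6 h, with 99.8 and 78.7 scaled reads in cKO libraries against 308 and 194 in WT libraries, and of 3.22 at 48 h. Rpl30-ps10 had a ratio of 0.529 at 0 h, with 150.3 and 216 in cKO against 309.9 and 382 in WT, and of 2.87 at 48 h. Gm12250 had ratios of 1.7 (0 h), 6.58 (3 h), 6.58 (6 h) and 0.818 (48 h).

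Gm10123, which fell at 48 h with a ratio of 0.783, had 0.503 at 0 h and 1.36 at 3 h. Its 0 h values were 889 and 583 scaled reads in cKO libraries against 2022 and 903 in WT libraries. There WT replicate 1 stood far above the rest, and WT replicate 2 was close to cKO replicate 1. Gm9118 had ratios of 1.84 at 0 h, 0.254 at 6 h and 1.28 at 48 h. Impdh2-ps had 1.4 at 3 h and 0.857 at 48 h, and Gm10146 had 1.87 at 3 h and 0.719 at 48 h. AC122821.1, an Rpl37 copy, had 2.82 at 0 h and 0.432 at 6 h. In Gm9118 and AC122821.1 the values rested most on the libraries that stood apart: cKO replicate 2 at 0 h and WT replicate 1 at 6 h were the highest of the 4 in each.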

How the results depend on the processing

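The number of pseudogenes called, like that of all listed genes called, depended on the test. At 3 h, where the authors' table gives 9, limma on log2(value + 1), limma with + 0.5 or + 5, edgeR and edgeR with TMM gave 0, while DESeq2 gave 8, of which 6 were among the 9. At 6 h, where the table gives 4, the 3 limma fits and edgeR gave 0, edgeR with TMM gave 1 and DESeq2 gave 2. At 48 h, where it gives 12, the 3 limma fits gave 2, both edgeR fits gave 1 and DESeq2 gave 11. Leaving out each library in turn gave 0 calls by limma at every time; by DESeq2 (chosen after seeing the data) it gave 0 to 5 at 0 h (5 without cKO replicate 1), 1 to 8 at 3 h (1 without cKO replicate 1, 4 without cKO replicate 2), 0 to 2 at 6 h (0 without WT replicate 2) and 1 to 6 at 48 h (1 without WT replicate 1, 2 without WT replicate 2). The cause of these differences was not tested. A mean of at least 10 left each count of the authors' table within 1.5 times.

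The median of log2(value + 1), cKO minus WT, kept its sign at every time under every alternative run. Leaving out 1 library gave a range of 0.32 to 1.25 (0 h), 0.40 to 0.49 (3 h), -1.79 to -0.46 (6 h) and -0.31 to -0.27 (48 h). Taken relative to the median of the listed protein-coding genes (0.65, 0.34, 0.84 and -0.23), it came to 0.17 (0 h), 0.14 (3 h), -2.08 (6 h) and -0.0746 (48 h). With genes selected by p, these values depend on how many genes were listed in each direction. Pseudocounts of 0.5 and 5, a mean of at least 10, and setting pseudogenes of an all-0 group to their bound (chosen after seeing the data) moved it by less than the spread between library pairs.

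Over the listed protein-coding genes, the correlation of same-numbered deviations was 0.06, -0.12, 0.01 and 0.16 at 0, 3, 6 and 48 h. These genes were selected by p, with 1 deviation per genotype in each, so the correlations cannot decide whether libraries were paired. With the replicate block, limma called 0 pseudogenes (0 h), 0 (3 h), 2 (6 h) and 1 (48 h). Among all listed genes it called 5, 0, 48 and 1, against 0, 0, 0 and 6 without the block. The medians were unchanged, as they must be in this balanced design. Of 98 named pseudogene and time pairs, 3 at 0 h changed sign when 1 library was left out, all uncalled: Gm6807 (-0.0848 without cKO replicate 2), Rps26-ps1 (0.0666 without WT replicate 2) and Gm7536 (0.0682 without WT replicate 2).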
